A study of Mus musculus with 15 samples.

Results

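The smooth muscle and myofibroblast contractile genes were followed as 10 named genes of the 31017 in each count table: Acta2, Actg2, Actc1, Tagln, Cnn1, Myh11, Myl9, Tpm1, Tpm2 and Des. They were chosen by symbol and not by a measured value, though earlier results of these data were known. All 10 have an entry in every one of the 15 libraries. The study examined mice with a dominant mutation of Dnmt1, the maintenance DNA methyltransferase, by RNA immunoprecipitation (RIP), in which RNA bound by an antibody is sequenced. Cells were fibroblast lines grown from the tails of Het, Hom and WT littermates of the same sex, or brain cortex; the labels give neither the allele, the age of the animals nor how many lines stood behind a genotype, so p-values below measure the spread between libraries, which may be technical. The Dnmt1 RIP, from formaldehyde-fixed fibroblasts with a rabbit antibody against Dnmt1, had 2 Het, 2 Hom and 2 WT libraries. The m5C RIP, in which messenger RNA was precipitated with an antibody against 5-methylcytosine, had 1 Het, 1 Hom and 2 WT fibroblast libraries, and 1 Het, 1 Hom and 1 WT cortex library. Each tissue had 1 library titled input, whose antibody label is IgG and whose genotype is not given.

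As background, smooth muscle and myofibroblasts generate force when myosin, assembled from the heavy chain Myh11 and regulatory light chains such as Myl9, pulls on actin filaments. Acta2 (smooth muscle alpha actin, the usual mark of a myofibroblast), Actg2 (the smooth muscle gamma actin of gut) and Actc1 (cardiac alpha actin) form the filaments; the tropomyosins Tpm1 and Tpm2 lie along them; Cnn1 (calponin) restrains the myosin motor; Tagln (transgelin, or SM22 alpha) binds and bundles actin; and Des (desmin) is the intermediate filament of muscle. Serum response factor and its myocardin-family partners drive many of these genes through a promoter element called the CArG box. Cultured fibroblasts commonly take on part of this programme, and in cortex it belongs to the muscle cells of blood vessels.

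By the GENCODE M21 annotation of mm10, all 10 are protein-coding genes. Acta2 lies on chromosome 19 from 34241090 to 34255590, Actg2 on chromosome 6 from 83512905 to 83536265, and Actc1 on chromosome 2 from 114047282 to 114053548, all on the minus strand. Myh11 (chromosome 16, 14194535 to 14291372), Tpm1 (chromosome 9, 67022590 to 67049406), Tpm2 (chromosome 4, 43514711 to 43523765) and Tagln are also on the minus strand. Myl9 (chromosome 2, 156775420 to 156781658), Cnn1 (chromosome 9, 22099216 to 22109630) and Des (chromosome 1, 75360329 to 75368579) are on the plus strand.

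The promoters in which a match to that element was found, among those that could be searched, are shown for Acta2, Actc1 and Myl9. Of the 10 genes, 7 had a promoter in the RefSeq table of build GRCm38.p6, running from 250 bases before to 50 after the start site. The motif searched was CCNNNNNNGG with the 6 inner bases A or T, which reads the same on both strands, and a single changed inner base was also allowed; capitals mark the matches. An unchanged match was present in the promoters of Actc1 and Myl9, and in 1.63% of all 32851 promoters of the table. With at most 1 changed base, Acta2, Actc1 and Myl9 had matches, as did 9.98% of all promoters. None was found in these windows of Cnn1, Tpm1, Tpm2 and Des, and Actg2, Myh11 and Tagln had no promoter in the table. Whether the element bears on the RIP levels was not tested.
Acta2, chr19:34255324-34255623, minus strand: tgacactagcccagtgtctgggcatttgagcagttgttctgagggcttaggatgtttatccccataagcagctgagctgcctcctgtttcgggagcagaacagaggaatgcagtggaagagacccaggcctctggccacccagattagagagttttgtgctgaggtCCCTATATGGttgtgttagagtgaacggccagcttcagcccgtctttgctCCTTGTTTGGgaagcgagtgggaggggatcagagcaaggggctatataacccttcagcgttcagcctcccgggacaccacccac
Actc1, chr2:114052826-114053125, minus strand: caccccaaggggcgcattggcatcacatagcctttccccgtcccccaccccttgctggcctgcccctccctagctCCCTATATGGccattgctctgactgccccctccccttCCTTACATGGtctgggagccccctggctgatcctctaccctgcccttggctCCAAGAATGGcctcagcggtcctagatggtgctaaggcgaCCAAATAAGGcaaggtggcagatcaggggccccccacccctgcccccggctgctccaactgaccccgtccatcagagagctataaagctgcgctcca
Myl9, chr2:156775214-156775513, plus strand: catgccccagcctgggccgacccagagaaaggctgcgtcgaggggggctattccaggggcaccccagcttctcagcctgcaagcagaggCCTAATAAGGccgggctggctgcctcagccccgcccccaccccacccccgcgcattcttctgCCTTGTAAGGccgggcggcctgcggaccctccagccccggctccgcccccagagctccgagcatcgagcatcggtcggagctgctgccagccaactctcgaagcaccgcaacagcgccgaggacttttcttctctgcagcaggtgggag
In Acta2 the matches lay at -84 to -75 and at -34 to -25 from the start site, each with 1 changed base. In Actc1 the unchanged match lay at -47 to -38, with 3 changed ones upstream. In Myl9 the unchanged match lay at -161 to -152 and the changed one at -99 to -90. A match describes the letters only, and the libraries hold no measurement of binding there.

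The actins of the set are close enough in sequence that the start of the coding region of Acta2 and Actc1 is shown, with the 14 of 60 bases at which they differ in capitals.
Acta2: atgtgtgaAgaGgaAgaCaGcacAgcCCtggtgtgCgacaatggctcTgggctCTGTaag
Actc1: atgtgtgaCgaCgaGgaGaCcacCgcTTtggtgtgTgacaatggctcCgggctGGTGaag
Over the whole coding region, aligned from the longest open reading frame of GENCODE M21 transcripts, Acta2 was 82.54% identical to Actc1 and 84.22% identical to Actg2. Of all windows of 50 bases in Acta2, 0.326% were also found in another gene, a pseudogene of gamma actin, and none of Actc1 or Actg2 were. Of Myh11, 0.34% were shared with Myh9, the nonmuscle myosin heavy chain. Tagln, on chromosome 9 from 45929619 to 45936058 of mm10 on the minus strand, is the exception: 62.4% of its 1988 exon bases are also covered by the antisense gene Gm48529 and 5.43% by Pcsk7, which leaves 32.1% in no other gene. No source used here gives the strand setting of the counting, so reads of Tagln and of its antisense partner cannot be told apart.

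Total counts in genes other than Lars2, Gm42418, Gm26917 and Gm10800, which alone held 4.01 to 63.5% of a library, ranged from 95107 in the fibroblast input to 4576517 in the cortex input. Levels are given in CPM, counts scaled to 1000000 of these totals. The 3 counts that a count of 0 allows corresponded to 0.656 to 31.5 CPM, so an absent gene in the fibroblast input could still have 31.5 CPM. These limits cover counting error only. Fibroblast markers summed to 24853 to 31061 CPM in the fibroblast m5C RIP, against 531 to 644 CPM in the cortex m5C RIP, while in the Dnmt1 RIP they ranged from 621 to 22129 CPM. Neuron markers summed to 371 to 766 CPM in the fibroblast m5C RIP and to 5946 to 6030 CPM in the cortex m5C RIP, and macrophage markers to 2938 to 5423 CPM and 132 to 142 CPM in the same libraries. WT fibroblast m5C library 1 had a count at or above that of the Hom fibroblast m5C library in each of the 31017 genes, and 5 of the 10 contractile genes had the same count in both. Summed over the set the counts were 1037 in that WT library and 1001 in the Hom library, so Hom values in the m5C RIP are also given against each WT library alone. The fibroblast m5C libraries may thus not be independent, while the p-values between tissues and between antibodies treat them as separate. With the Hom counts subtracted from that WT library, the genes called went from 9075 to 5993 between tissues and from 6446 to 3215 between antibodies.

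**Figure D1:**
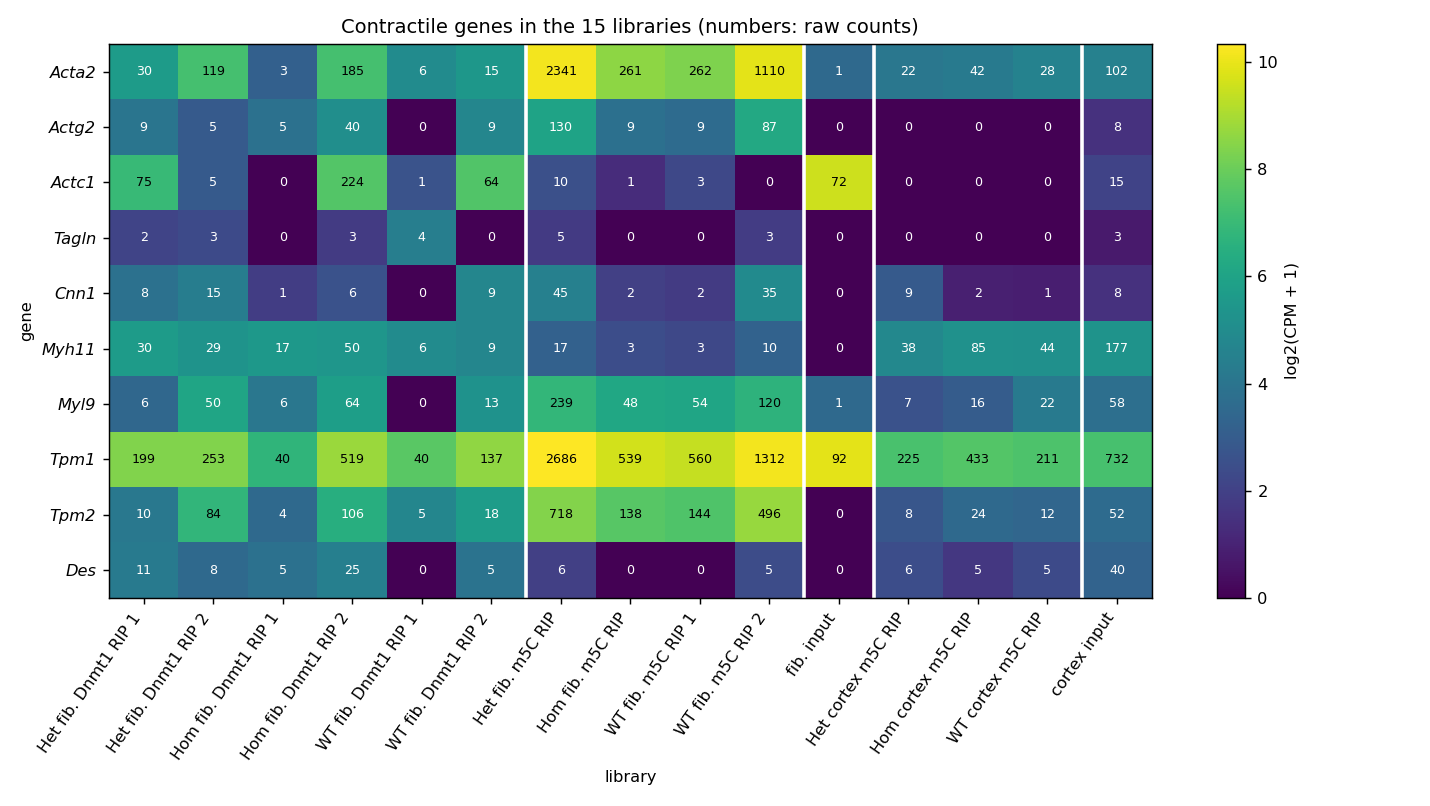
Levels of the 10 contractile genes (rows) in the 15 libraries (columns), coloured by log2(CPM + 1) with the raw count printed in each cell. Acta2, Tpm1, Tpm2 and Myl9 were high in the fibroblast m5C RIP, Actc1 was high in 3 Dnmt1 RIP libraries and the fibroblast input, and Tagln did not pass 5 counts in any library.

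The contractile genes were far from equally represented. Tpm1 was the gene of the set with the most counts in all 15 libraries, with 41.3 to 71.4% of the set's counts. Together the 10 genes reached 2984 CPM in the Het fibroblast m5C library, 1460 CPM in the Hom library and 1292 and 2729 CPM in the WT libraries. In the Dnmt1 RIP they summed to 635 and 752 CPM in Het, 215 and 1027 CPM in Hom, and 321 and 807 CPM in WT libraries. In cortex the sums were lower and close to each other, with 229 CPM in Het, 264 CPM in Hom and 263 CPM in WT m5C libraries, and 261 CPM in the input. The fibroblast input reached 1745 CPM from 166 counts, of which 92 were Tpm1 and 72 Actc1.

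Scaled by exon length, the order in the fibroblast m5C RIP was Acta2, Tpm1, Tpm2, Myl9, Actg2 and Cnn1. Their levels per kilobase of exon, as medians of 4 libraries, were 304 CPM per kilobase for Acta2, 148 for Tpm1, 94.0 for Tpm2, 74.5 for Myl9, 24.3 for Actg2 and 4.49 for Cnn1. Each of the first 5 lay above the next gene in all 4 libraries, although the range of Acta2 alone ran from 149 to 513 CPM per kilobase. The genes below Cnn1 were not separated: Actc1, Myh11, Tagln and Des had medians of 1.60, 0.826, 0.605 and 0.385 CPM per kilobase, at 0 to 17 counts. In the cortex m5C RIP, Tpm1 led with a median of 26.4 CPM per kilobase over 3 libraries and lay above Acta2, at 8.31, in all 3. Acta2 and Myl9, at 5.98, overlapped, and Myh11 at 4.71 and Tpm2 at 3.35 followed. In the Dnmt1 RIP, neighbouring genes overlapped throughout: Tpm1 had a median of 51.3 CPM per kilobase over 6 libraries and lay above Actc1, at 40.8, in 3 of them.

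The comparison of tissues asked which contractile transcripts were recovered by the m5C antibody in fibroblasts relative to cortex, with 4 fibroblast and 3 cortex libraries fitted with genotype as a covariate. Acta2, Tpm2, Myl9, Tpm1, Cnn1 and Actg2 were all higher in fibroblasts, and Myh11 was lower. Among genes detected in both tissues the differences reached 36.4-fold, in Acta2. In bulk samples, fewer cells of a type and less RNA per cell cannot be told apart, and a RIP level holds both the amount of a transcript and its recovery.

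Acta2 was at 1127 CPM in the Het, 381 CPM in the Hom and 326 and 953 CPM in the WT fibroblast library, against 16.0 CPM in the Het, 18.3 CPM in the Hom and 22.8 CPM in the WT cortex library. The lowest fibroblast library was thus above every cortex library, and the log2 fold change was 5.19 ± 0.44 (SE, edgeR quasi-likelihood test, adjusted p = 1.12e-07). Tpm2 was at 346, 201, 179 and 426 CPM in the same fibroblast libraries, against 5.83, 10.4 and 9.75 CPM in cortex. Its log2 fold change of 5.05 ± 0.39 was close to that of Acta2 (edgeR adjusted p = 4.57e-08). These 2 genes, an actin and a tropomyosin, had the largest differences among members detected in both tissues.

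Tpm1, the other tropomyosin, is also used outside muscle, and it was present in both tissues. It was at 1293 CPM in the Het, 786 CPM in the Hom and 698 and 1127 CPM in the WT fibroblast library, against 164, 188 and 171.5 CPM in the Het, Hom and WT cortex library. The log2 fold change was 2.60 ± 0.26 (edgeR adjusted p = 5.38e-07). Myl9, the regulatory light chain, was at 115, 70.0, 67.3 and 103 CPM in fibroblasts, against 5.10, 6.95 and 17.9 CPM in cortex, with a log2 fold change of 3.28 ± 0.36 (edgeR adjusted p = 1.54e-06) and of 3.95 without the WT cortex library. For both genes the tissues did not overlap.

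Cnn1 was higher in fibroblasts by 2.53 ± 0.81 on the log2 scale (edgeR adjusted p = 0.0131), but its tissues overlapped. It was at 21.7 CPM in the Het and 2.92 CPM in the Hom library and at 2.49 and 30.1 CPM in the WT fibroblast libraries, against 6.56, 0.869 and 0.813 CPM in the Het, Hom and WT cortex library. Without the WT cortex library the value was 1.85, and it no longer passed (edgeR adjusted p = 0.118). It was 1.81 without WT fibroblast library 2, 3.26 without the Het fibroblast library and 3.27 without the Het cortex library. Actg2 had 130 counts in the Het, 9 in the Hom and 9 and 87 in the WT fibroblast library, against 0 counts in all 3 cortex libraries. Taking 3 counts per cortex library as the limit, the mean of the fibroblast libraries was 20.45 times the mean limit, at 40.4 against 1.98 CPM. Single fibroblast libraries ran from 11.2 to 74.7 CPM. Actg2 passed the test (edgeR adjusted p = 2.80e-05).

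Myh11, the heavy chain most specific to differentiated smooth muscle, ran the other way. It was at 8.18 CPM in the Het, 4.37 CPM in the Hom and 3.74 and 8.59 CPM in the WT fibroblast library, from 3 to 17 counts, against 27.7, 36.9 and 35.8 CPM in the Het, Hom and WT cortex library. Every fibroblast library was below every cortex library, and the difference was 4.51-fold (log2 fold change -2.17 ± 0.37, edgeR adjusted p = 0.000131). Pericyte and endothelial markers, which would come with vessels, were measured beside it. Of 7 endothelial markers tested, 4 were lower in fibroblasts and none higher, with Pecam1 at a log2 fold change of -2.13 ± 0.48 (edgeR adjusted p = 0.00138). Endothelial markers summed to 57.5 to 84.7 CPM in fibroblast and 197 to 226 CPM in cortex m5C libraries, with 1 of the 8 at 0 in both WT fibroblast library 1 and the Hom fibroblast library. Pericyte markers split, with 2 of 7 higher and 2 lower: Rgs5, a regulator of G protein signalling in mural cells, had a log2 fold change of -2.67 ± 0.27 (edgeR adjusted p = 6.19e-07), and their sum was 326 to 394 CPM in fibroblasts and 169 to 217 CPM in cortex. The part of these cells in the Myh11 difference was not tested.

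In all, 7 of the 10 genes had enough counts to be tested, and 6 were higher and 1 lower in fibroblasts. Over the 14193 genes tested, 33% were higher, 30.9% lower and 63.9% called in all. The libraries did not overlap for 5 genes that were higher and 1 that was lower, against 31.8% and 35.3% of all genes. All 7 passed an unadjusted p of 0.05, as did 67.1% of all genes, and DESeq2 called all 7 and 56.9% of all genes. The median log2 fold change was 3.28 over the 7 genes, or 3.95 without the WT cortex library, and 0.06 over all genes tested. Actc1, Tagln and Des did not enter the fit. Actc1 had 0 to 10 counts in fibroblast libraries and 0 in each cortex library, Tagln 0 to 5 and 0 counts, and Des 0 to 6 and 5 to 6 counts, so a difference was not detectable at these counts.

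Around the set, the nonmuscle actin cytoskeleton genes moved mostly with Acta2 and the other smooth muscle genes did not move one way. Of 19 nonmuscle genes, 17 were higher and 1 lower in fibroblasts, among them Vim (vimentin, the intermediate filament of mesenchymal cells) at 6.35 ± 0.31, Tagln2, a relative of Tagln, at 4.92 ± 0.33 and Myl12a, a nonmuscle light chain, at 4.60 ± 0.26 on the log2 scale (edgeR adjusted p = 1.19e-09, 1.02e-08 and 3.32e-09). Of 13 other smooth muscle genes tested, 5 were higher and 5 lower, with Synm (synemin, an intermediate filament protein) at -2.18 ± 0.26 and Ppp1r12b, a subunit of myosin phosphatase, at -2.01 ± 0.22 (edgeR adjusted p = 3.45e-06 and 1.74e-06). Of 20 regulators acting through serum response factor or YAP, 9 were higher and 5 lower: Mkl2, a myocardin-family coactivator, was at -2.57 ± 0.19, Elk3, a partner of serum response factor, at 3.23 ± 0.29 and Tead2, a partner of YAP, at 3.27 ± 0.32 (edgeR adjusted p = 2.45e-08, 1.82e-07 and 4.46e-07). Of 13 striated muscle genes tested, 6 were higher and none lower, most at low counts. Of 11 fibroblast markers, 10 were higher, of 8 macrophage markers 8 were higher and of 10 neuron markers 10 were lower. Of 2 keratinocyte markers tested, neither passed.

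The comparison of antibodies asked how the same fibroblast transcripts appeared in the Dnmt1 RIP relative to the m5C RIP, over 6 and 4 libraries with the 3 genotypes weighted equally. Acta2, Tpm2, Tpm1 and Myl9, the genes that were abundant in the m5C RIP, were all lower in the Dnmt1 RIP. Myh11 and Actc1 were higher. The labels do not say which libraries were made from polyA-enriched and which from rRNA-depleted RNA, and both methods are named, so antibody and library method cannot be told apart. The Dnmt1 RIP also came from formaldehyde-fixed fibroblasts and the m5C RIP from messenger RNA. Antibody and this preparation cannot be told apart either.

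Acta2 levels in the Dnmt1 RIP were 50.1 and 157 CPM for Het, 7.97 and 155 CPM for Hom and 31.1 and 43.4 CPM for WT libraries. In the m5C RIP it was at 326 CPM or more, so no library overlapped. The log2 fold change was -3.84 ± 0.62, a 14.3-fold lower level (edgeR adjusted p = 0.000440), and -4.99 without Hom library 2. Tpm2 had 16.7 and 111 CPM in Het, 10.6 and 89.1 CPM in Hom and 25.9 and 52.1 CPM in WT libraries of the Dnmt1 RIP, against 179 to 426 CPM in the m5C RIP. Its log2 fold change was -3.03 ± 0.56 (edgeR adjusted p = 0.000979), and -3.82 without Hom library 2. For both genes the Het libraries, and the Hom libraries, lay further apart than the means of the genotypes.

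Tpm1 was steadier. It had 332 and 333 CPM in Het, 106 and 436 CPM in Hom and 207 and 396 CPM in WT libraries of the Dnmt1 RIP, against 698 to 1293 CPM in the m5C RIP, with a log2 fold change of -2.30 ± 0.46 (edgeR adjusted p = 0.00158). Myl9 had 10.0 and 65.9 CPM in Het, 15.9 and 53.8 CPM in Hom and 0 and 37.6 CPM in WT libraries of the Dnmt1 RIP, against 67.3 to 115 CPM in the m5C RIP. The antibodies did not overlap, and the log2 fold change was -2.07 ± 0.53 (edgeR adjusted p = 0.00736). It was -4.37 without WT Dnmt1 RIP library 2, which left WT with the library at 0 counts.

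Myh11 had 50.1 and 38.2 CPM in Het, 45.2 and 42.0 CPM in Hom and 31.1 and 26.0 CPM in WT libraries of the Dnmt1 RIP, against 3.74 to 8.59 CPM in the m5C RIP. All 6 Dnmt1 RIP libraries lay above all 4 m5C libraries, as for 23.2% of all genes tested. The level was 3.90-fold higher (log2 fold change 1.97 ± 0.45, edgeR adjusted p = 0.00386). Myh11 was detected in all 6 Dnmt1 RIP libraries, and in proportion its levels there were the closest together of the set. Other cell types' genes were higher in the same direction: neuron markers in 10 of 10 cases, endothelial markers in 3 of 7 and striated muscle genes in 11 of 22, including Ttn (titin) at 1.91 ± 0.44 and Neb (nebulin) at 1.74 ± 0.32 on the log2 scale (edgeR adjusted p = 0.00409 and 0.000933). Neuron markers summed to 2253 to 3711 CPM in the Dnmt1 RIP and 371 to 766 CPM in the fibroblast m5C RIP, with none of the 10 at 0 in any of these libraries. Their part in the Myh11 difference was not tested.

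Actc1 fell into high and low libraries. It had 125 and 6.59 CPM in Het, 0 and 188 CPM in Hom and 5.18 and 185 CPM in WT libraries of the Dnmt1 RIP, against 4.81 CPM in the Het, 1.46 CPM in the Hom and 3.74 and 0 CPM in the WT m5C library. The fit called it higher, with a log2 fold change of 4.62 ± 1.32 (edgeR adjusted p = 0.0138), although the antibodies overlapped. Without WT Dnmt1 RIP library 2 the value was 3.15 and without Hom library 2 it was 1.65, and neither passed (edgeR adjusted p = 0.333 and 0.994). With DESeq2 the adjusted p was 0.0508. The 3 high libraries were Het library 1, Hom library 2 and WT library 2, 1 of each genotype.

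**Figure D2:**
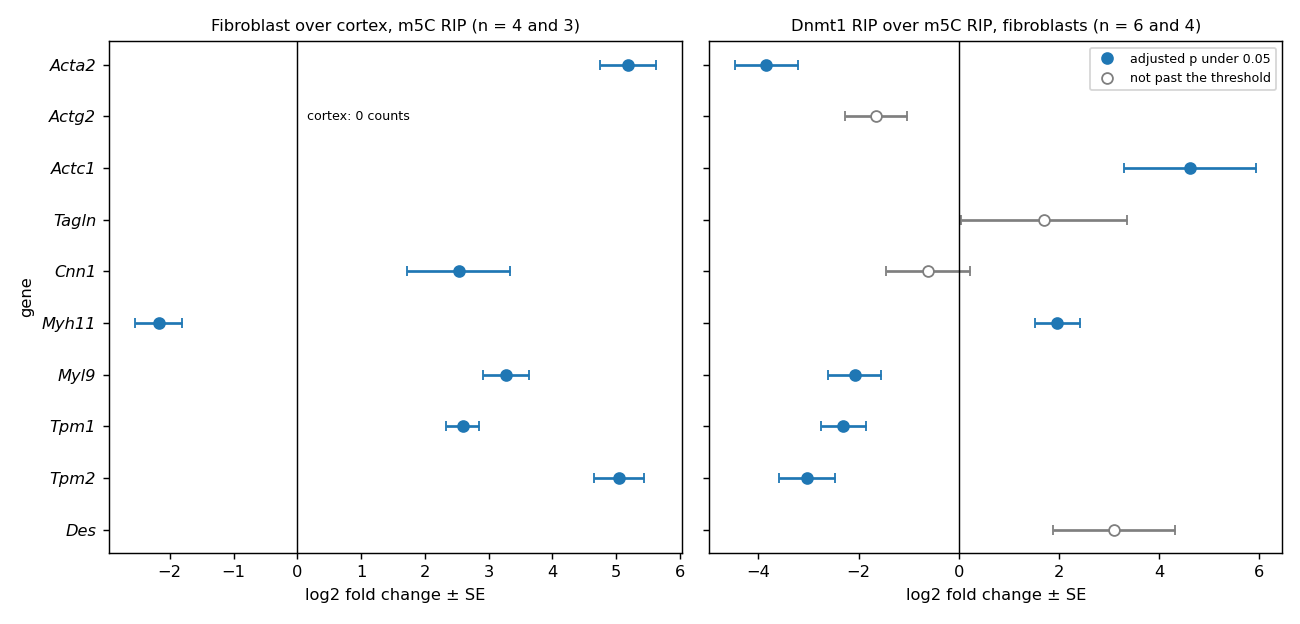
Log2 fold changes with their standard errors for the contractile genes tested, in fibroblast over cortex m5C RIP (left) and Dnmt1 RIP over m5C RIP in fibroblasts (right); filled points passed an adjusted p of 0.05. Acta2, Tpm1, Tpm2 and Myl9 lay right of 0 on the left and left of 0 on the right, and Myh11 did the reverse; Actg2 is not drawn on the left because cortex had 0 counts.

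All 10 genes were tested between antibodies: 2 were higher and 4 lower in the Dnmt1 RIP, while 16.2% of the 17124 genes tested were higher and 21.4% lower. Acta2, Tpm1, Tpm2 and Myl9 were lower without overlap, as were 9.03% of all genes. Myh11 was higher without overlap, as were 23.2%. Of all genes called, 43.1% were higher, and 64.1% with scaling by total counts alone. The median log2 fold change was -1.13 over the set and 0.24 over all genes tested. The median of the set was -2.63 without WT Dnmt1 RIP library 2 and -0.23 without WT m5C library 2. Actg2 was close to the threshold at -1.65 ± 0.63 (edgeR adjusted p = 0.0505), and so was Des at 3.10 ± 1.22 (edgeR adjusted p = 0.0574). Des had 18.4 and 10.5 CPM in Het, 13.3 and 21.0 CPM in Hom and 0 and 14.5 CPM in WT libraries of the Dnmt1 RIP, against 2.89, 0, 0 and 4.29 CPM in the Het, Hom and WT m5C libraries. Cnn1 (-0.61 ± 0.84) and Tagln (1.70 ± 1.65) did not pass (edgeR adjusted p = 0.575 and 0.425), and the value for Cnn1 was 0.41 without WT m5C library 2. Tagln had at most 4 counts in any Dnmt1 RIP library and 5 in any m5C library.

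The nonmuscle genes again moved with Acta2, with 16 of 19 lower in the Dnmt1 RIP and none higher. Tagln2 was at -3.71 ± 0.42, Myl12a at -3.23 ± 0.35 and Tpm4, a nonmuscle tropomyosin, at -3.07 ± 0.36 on the log2 scale (edgeR adjusted p = 6.07e-05, 5.43e-05 and 6.53e-05). Of 16 other smooth muscle genes, 4 were higher and 4 lower: Smtn (smoothelin, a smooth muscle cytoskeletal protein) was at -1.69 ± 0.33 and Pdlim7, a scaffold on actin filaments, at -1.74 ± 0.32 (edgeR adjusted p = 0.00140 and 0.000978). Of 22 regulators, 3 were higher and 6 lower, with the small GTPase Rhoa at -2.34 ± 0.30 and Yap1 at -1.37 ± 0.29 (edgeR adjusted p = 0.000115 and 0.00264). Fibroblast markers were lower in 10 of 10 cases and macrophage markers in 8 of 8. Pericyte markers split with 2 of 7 higher and 2 lower, and 2 of 4 keratinocyte markers were higher.

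The libraries high in Actc1 were also those high in another gene. Fam221b held 0.508% of counts in Het library 1, 0.857% in Hom library 2 and 0.797% in WT library 2, and at most 0.00949% in the other 3 Dnmt1 RIP libraries and the fibroblast m5C libraries. The fibroblast input had the highest share, 4.73%, and the highest Actc1 level, 757 CPM from 72 counts. Over the 10 fibroblast RIP libraries the genes most like Actc1, among 9977 with a mean of at least 20 CPM, were Tnpo1 (r = 0.980), Rps27rt (0.975), Tob1 (0.971), Ddx5 (0.963) and Dhx15 (0.963), by Pearson correlation of log2 CPM across libraries that differ in depth, antibody and genotype, given as a description. This list was made after the values of Actc1 were seen. Tob1, a regulator of cell proliferation, was at 449 CPM in Het library 1, 909 CPM in Hom library 2 and 697 CPM in WT library 2, at 3638 CPM in the fibroblast input, and at 46.6 CPM or less in the other fibroblast libraries. The difference between the high and low Fam221b libraries was fitted after the data were seen. For the 9 members tested it is given without an error and without the share of all genes above 0, as a description. On the log2 scale it was 5.26 for Actc1, 1.85 for Actg2, 1.26 for Des, 1.10 for Tpm1, 0.99 for Cnn1 and 0.77 for Acta2, and 0.17 to 0.55 for Myh11, Tpm2 and Myl9. Acta2 was at 10.5 CPM, or 1 count, in the fibroblast input.

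**Figure D3:**
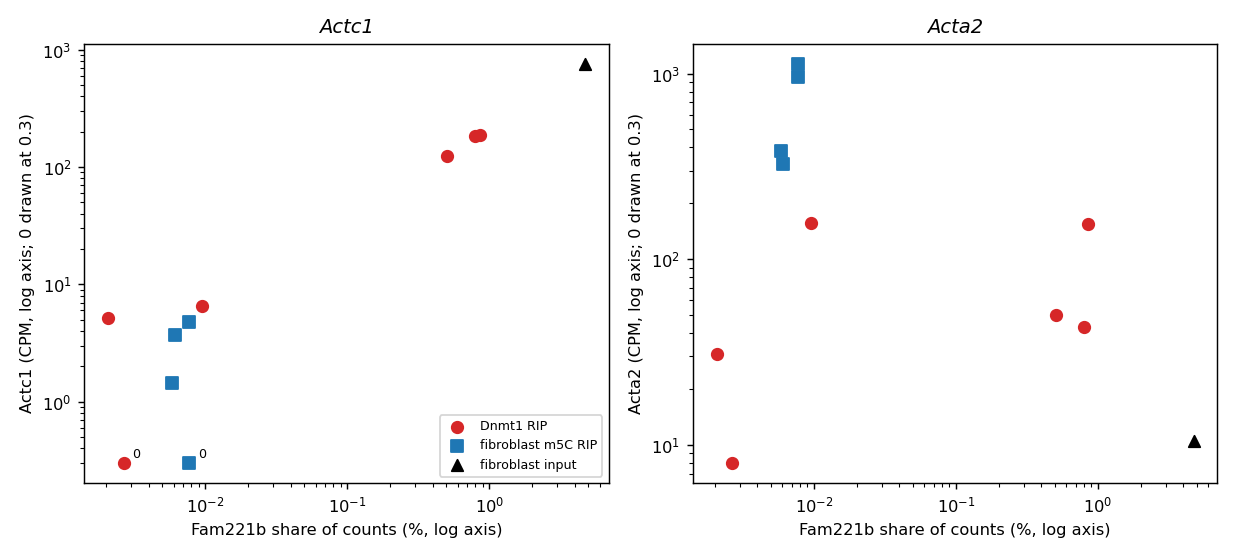
Level of Actc1 (left) and Acta2 (right) in CPM against the share of counts from Fam221b, both on log axes, in the 6 Dnmt1 RIP, 4 fibroblast m5C RIP and 1 fibroblast input libraries. Actc1 was 125 to 188 CPM in the 3 Dnmt1 RIP libraries with 0.508 to 0.857% Fam221b and at most 6.59 CPM in the other RIP libraries; Acta2 was highest in the m5C RIP.

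Without these 3 libraries, the log2 estimates for Dnmt1 RIP over m5C RIP were -4.91 for Acta2, -3.79 for Tpm2, -2.98 for Tpm1 and -4.49 for Myl9. Myh11 was at 1.94 and Actg2 at -4.28. That fit of 7 libraries held 1 Dnmt1 RIP library per genotype, so its 1 residual degree of freedom came from the WT m5C pair alone. It holds no spread between Dnmt1 RIP libraries, and the values are given without a test. Actc1 and Des then had too few counts to be tested.

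The genes most like Acta2 over the same 10 libraries were Rtraf (r = 0.990), Tmem147 (0.977), Minos1 (0.976), Serpinf1 (0.970) and Anxa2 (0.969). Within the set, Tpm2 (0.967) and Tpm1 (0.963) were most like it, Myl9 less so (0.760) and Myh11 ran opposite (-0.750). The median over the 9977 genes was -0.192. These values share the contrast between the 6 Dnmt1 RIP and 4 m5C libraries and are a description. Serpinf1, a secreted factor of fibroblasts, was at 1542 CPM in the Het, 1266 CPM in the Hom and 1154 and 2184 CPM in the WT m5C library, and at 15.9 to 465 CPM in the Dnmt1 RIP.

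The comparison of genotypes asked whether the Dnmt1 mutation went with a different level of the contractile transcripts in either RIP. No member passed the test in Het or Hom libraries with either antibody, so no fold below was called a change. With so few libraries per genotype and wide standard errors, these tests cannot show that levels were unchanged. In the Dnmt1 RIP, 9 genes were tested, and edgeR called 0% of the 13589 genes tested in each of the 3 comparisons. At an unadjusted p under 0.05, none of the 9 passed in any of the 3, while 6.39% of all genes did for Het over WT, 2.27% for Hom over WT and 4.63% for Hom over Het. DESeq2 called 0.191% for Het over WT, 0% for Hom over WT and 0.11% for Hom over Het, none of them a member.

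For Het over WT, 7 of the 9 estimates were above 0, as were 51.6% over all genes, and their median was 0.71, against 0.03 over all genes. Acta2 had 50.1 and 157 CPM in the Het and 31.1 and 43.4 CPM in the WT libraries, which did not overlap, with a log2 fold change of 1.51 ± 0.98 (edgeR adjusted p = 0.836). Myh11 did not overlap either, at 50.1 and 38.2 CPM in Het and 31.1 and 26.0 CPM in WT libraries (log2 fold change 0.76 ± 0.56, edgeR adjusted p = 0.853). Among all genes, 15.1% were higher in Het without overlap and 19.9% lower, and no member was lower in that way. The median of the set was 0.05 without WT library 1 and 3.90 without WT library 2; WT library 1 had 0 counts of Actg2, Cnn1, Myl9 and Des.

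For Hom over WT, 6 of the 9 estimates were above 0, as were 51% over all genes, and the median was 0.61. Acta2 was at 7.97 and 155 CPM in Hom libraries, the lowest and the second highest of the 6, so that its log2 fold change was 1.20 ± 0.98 (edgeR adjusted p = 1.0) and -2.26 without Hom library 2. The median of the set was -1.57 without that library, -0.07 without WT library 1 and 4.38 without WT library 2. Only Myh11 was without overlap, at 45.2 and 42.0 CPM in Hom and 31.1 and 26.0 CPM in WT libraries (log2 fold change 0.61 ± 0.56, edgeR adjusted p = 1.0), while 16.4% of all genes were higher without overlap. Cnn1 was at 2.66 and 5.04 CPM in Hom and 13.4 and 19.8 CPM in Het libraries, and its log2 fold change for Hom over Het was -2.02 ± 1.18 (edgeR adjusted p = 0.988) from 1 and 6 against 8 and 15 counts. Among all genes, 12.7% were lower in Hom than in Het without overlap. For Hom over Het, 3 of the 9 estimates were above 0, as were 49.2% over all genes, with a median of -0.15, which was 0.45 without Hom library 1 and -1.82 without Hom library 2.

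Sums of cell markers also differed between these libraries. In the Dnmt1 RIP, fibroblast markers summed to 22129 and 8074 CPM in Het, 1178 and 2662 CPM in Hom and 621 and 2095 CPM in WT libraries, and macrophage markers to 189 and 2187 CPM in Het, 215 and 615 CPM in Hom and 145 and 515 CPM in WT libraries. Acta2, Tpm2 and Myl9 were highest in Het library 2 and Hom library 2, the libraries with the highest macrophage sums, and Hom library 1 and WT library 1 were among the 3 lowest for each. The fibroblast sums were also lowest in Hom library 1 and WT library 1, and Het library 2 and Hom library 2 were above both WT libraries. Het library 1 departed from this order: it had the highest fibroblast sum, of which Col1a1 was 14266 CPM. It had 50.1 CPM of Acta2, 16.7 CPM of Tpm2 and 10.0 CPM of Myl9. Of the 8 macrophage markers 1 was at 0 in each of Hom library 1 and WT library 1, and none in the others; of the 12 fibroblast markers 1 was at 0 in Hom library 1 and in both WT libraries. The part of these cells in the genotype values was not tested. None of the 10 other lists had a gene past the test for Het or Hom in either RIP.

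In the fibroblast m5C RIP, with 1 Het and 1 Hom library, the fit took its spread from the WT pair alone, and the lone mutant library was assumed to vary like it. Of 12273 genes tested, edgeR called 0.0326% for Het over WT, of which 0.0244% were lower, and 0.00815% for Hom over WT, and DESeq2 called 0 in both. None of the 6 contractile genes tested was among them. At an unadjusted p under 0.05 by edgeR, none of the 6 passed for Het over WT, while 3.31% of all genes did. For Het over WT, all 6 estimates were above 0, as were 48% over all genes, with a median of 0.45. Acta2 was at 1127 CPM in the Het and 326 and 953 CPM in the WT library (log2 fold change 0.81 ± 0.47), Tpm1 at 1293 CPM and 698 and 1127 CPM (0.51 ± 0.50), and Myl9 at 115 CPM and 67.3 and 103 CPM (0.43 ± 0.37), each outside the WT range; Actg2 was within it, at 62.6 CPM and 11.2 and 74.7 CPM (0.47 ± 0.40). The edgeR adjusted p was 1.0 for each, and 30.3% of all genes were likewise above both WT libraries and 31.7% below both. Against WT library 2 alone Actg2 was at -0.29 and the median was -0.08, and against WT library 1 alone it was 1.39.

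For Hom over WT, all 6 estimates were below 0, while 49% over all genes were above it, and the median was -0.71. Actg2 was at 13.1 CPM in the Hom and 11.2 and 74.7 CPM in the WT libraries (log2 fold change -1.81 ± 0.56), Cnn1 at 2.92 CPM and 2.49 and 30.1 CPM (-2.57 ± 1.04), and Acta2 at 381 CPM and 326 and 953 CPM (-0.79 ± 0.51). The edgeR adjusted p was 1.0 for each. Actg2 and Cnn1 had an unadjusted p under 0.05 by edgeR, as did 0.961% of all genes. All 6 genes lay within the WT range, while 24.5% of all genes were below both WT libraries. WT library 1 held the Hom counts and had a larger total, 802795 against 685737. A gene with few counts beyond them must then lie just above WT library 1 in CPM, so this place in the range shows nothing about Hom. The direction depended on the WT library: against WT library 1 alone Acta2, Actg2 and Cnn1 were at 0.21, 0.21 and 0.20. With nearly the same counts in both libraries, these values reflect the scaling. Against library 2 alone the median was -1.27, and against WT library 1, whose counts include those of the Hom library gene by gene, it was 0.18. The counts of WT library 1 beyond those of Hom were 1 for Acta2, 0 for Actg2 and Cnn1, 6 each for Myl9 and Tpm2 and 21 for Tpm1, out of 249780 in all genes.

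**Figure D4:**
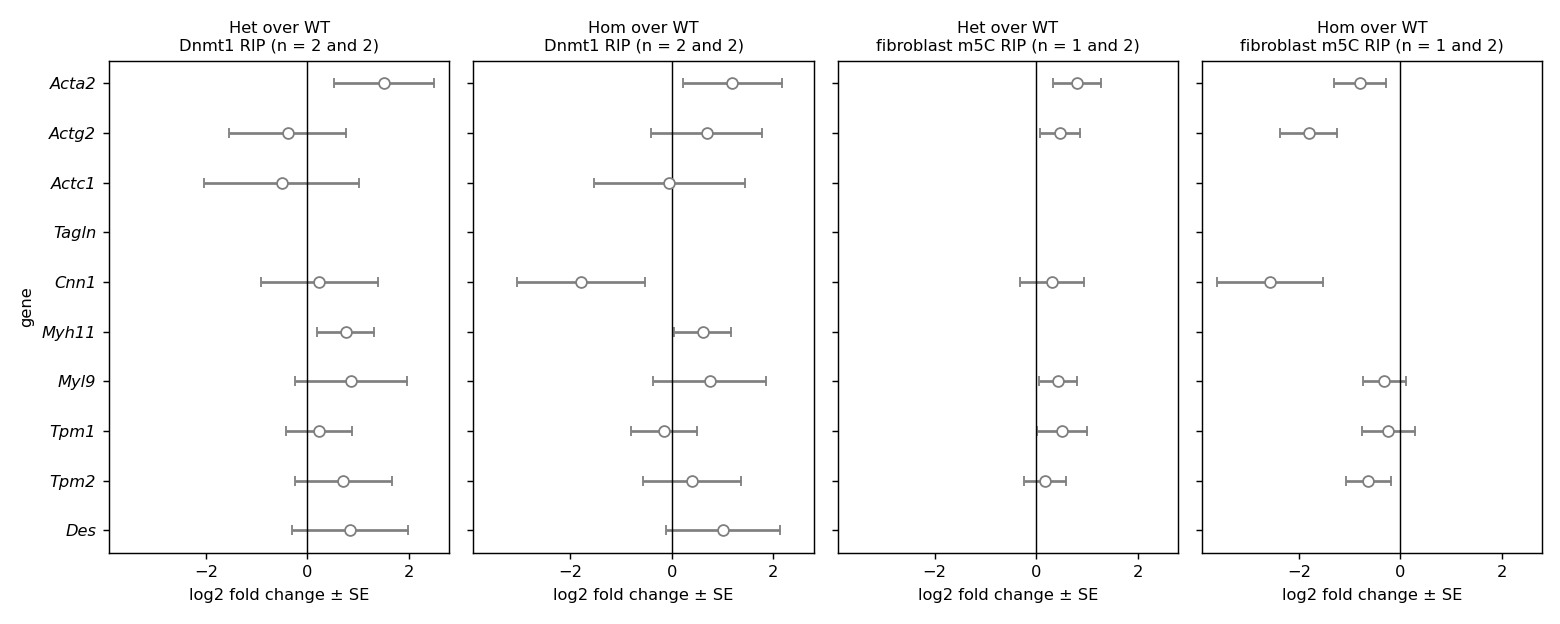
Log2 fold changes with standard errors for the contractile genes tested, for Het over WT and Hom over WT in the Dnmt1 RIP (2 against 2 libraries) and in the fibroblast m5C RIP (1 against 2 libraries). Open points did not pass an adjusted p of 0.05; all points are open, and in the m5C RIP the 6 genes lay above 0 for Het and below 0 for Hom.

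Whether the genotype values differed between antibodies was tested as an interaction. No member passed for Het or Hom, nor did any of the 17124 genes by edgeR or DESeq2, and 3.35% and 1.19% of genes had an unadjusted p under 0.05. The same test between tissues in the m5C RIP, added after the values were seen, called no member, and called 3 of 14193 genes for Het and 0 for Hom. Its smallest unadjusted p in the set was for Myl9 in Het (difference of log2 fold changes 2.29 ± 0.83, edgeR adjusted p = 1.0).

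In cortex each genotype had 1 library, so its genotypes are given as ratios, without a test within cortex. Acta2 was at 16.0 CPM in the Het, 18.3 CPM in the Hom and 22.8 CPM in the WT library and Myh11 at 27.7, 36.9 and 35.8 CPM. The largest differences were in low counts. Myl9 had 7 counts in the Het, 16 in the Hom and 22 in the WT library, or 5.10, 6.95 and 17.9 CPM, a log2 ratio of -1.66 for Het and -1.26 for Hom over WT. Cnn1 had 9 counts in the Het and 1 in the WT library, a log2 ratio of 2.16. These were the members past 2-fold, 2 of 7 with enough counts for Het and 1 of 6 for Hom, against 10.7% and 9.92% of all genes compared. Tpm1, with 225, 433 and 211 counts in the same order, had log2 ratios of -0.07 for Het and 0.13 for Hom over WT.

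The comparison with the inputs asked whether the antibodies recovered the contractile transcripts beyond the IgG-labelled library. In fibroblasts it had little power, since the input had 166 counts in the set and 6 of the 10 genes were at 0. For WT Dnmt1 RIP over input none of the 9 genes tested passed, and 0% of the 16558 genes did by edgeR, although 26.5% had an unadjusted p under 0.05; DESeq2 called 11 genes. Tpm1, at 207 and 396 CPM in the WT Dnmt1 RIP and 967 CPM in the input, had a log2 fold change of -1.87 ± 0.79 (edgeR adjusted p = 0.160). Actc1, at 5.18 and 185 CPM in the WT Dnmt1 RIP and 757 CPM in the input, had -3.07 ± 1.65 (edgeR adjusted p = 0.241). Myh11 and Tpm1 were the 2 members with an unadjusted p under 0.05 by edgeR. Myh11 had 6 and 9 counts in the WT Dnmt1 RIP and 0 in the input, which is under the limit of that library.

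For WT m5C RIP over input, with both tissues in 1 fit, Actc1 was the only member of 9 called. It had 3 and 0 counts in the WT fibroblast m5C libraries, 0 in the WT cortex m5C library, 72 in the fibroblast input and 15 in the cortex input. Its log2 fold change was -8.27 ± 0.95 (edgeR adjusted p = 0.00719), and 0.0138% of 14501 genes, 2 genes in all, were called lower. It no longer passed without WT fibroblast m5C library 1 (-11.67, edgeR adjusted p = 0.219) or library 2 (-7.08, edgeR adjusted p = 0.476), and could not be tested without the fibroblast input. Without the cortex input, 1 input library was left, so no count of members is given. Over the fits that left out 1 library, the median log2 fold change of the members ran from -0.27 to 6.31. That of all genes tested ran from -0.11 to 5.998. In cortex alone, log2 ratios of the WT m5C library over the cortex input were -0.97 for Des, from 5 against 40 counts, -0.20 for Tpm2 and 0.47 for Myl9, with Acta2 at 0.03, Myh11 at -0.11 and Tpm1 at 0.10. Actc1, with 0 counts in the WT m5C library and 15 in the cortex input, was the 1 member past 2-fold, as were 12.5% of all genes compared.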

How the data were processed

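RNA bound by an antibody against Dnmt1 or 5-methylcytosine, and the 2 libraries titled input, were sequenced from mouse tail fibroblasts and cortex. The deposited files hold raw counts per gene symbol, which the authors made with Trim Galore 0.4.1, HISAT2 and featureCounts on mm10, per the submitters' processing notes; the strand setting and gene annotation are not stated there. In 6 libraries 5 further lines, named as HTSeq names them, count reads assigned to no gene; they held 89.9 to 96.2% of the reads listed there, with 63.2 to 89.5% not aligned, and were left out of totals and tests. Groups came from the sample labels. CPM was computed on totals without Lars2, Gm42418, Gm26917 and Gm10800, known from earlier results to dominate some libraries. Levels per kilobase divide CPM by the union of exon bases in GENCODE M21, which matched 30532 of the 31017 symbols.

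Comparisons used edgeR 4.0.16 quasi-likelihood tests in R 4.3.3 on the deposited counts, with TMM scaling, a filter of at least 10 counts (15 in total), and Benjamini-Hochberg adjustment over all genes tested, with a threshold of 0.05. Cortex genotypes, with 1 library each, were compared as log2 ratios of CPM with a prior count of 2, for genes with at least 10 counts in both libraries together. A count of 0 allows up to 3 counts. Alternatives were DESeq2 1.42.0, other scalings, no filter, a replicate block, subtraction of the shared Hom counts from WT fibroblast m5C library 1, and leaving out each library. The fits were tested on simulated counts. Text gave all 10 members, up to 3 genes of each other list with the smallest p in the comparison (1 such gene is not reported here), and the 5 genes most like Acta2. The members and the lists were chosen with earlier results of these data known.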

Additional observations from a re-analysis of the deposited data

How the results depend on the processing

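Every alternative kept the direction of Acta2, Tpm1, Tpm2 and Myl9 in the tissue and antibody comparisons, and all 7 genes tested between tissues kept their direction. Among the genes described, changes of direction came from leaving out a library: over these fits, Acta2 for Hom over WT in the Dnmt1 RIP ranged from -2.26 to 2.08, and Cnn1 for Dnmt1 RIP over m5C RIP from -2.73 to 0.41 (log2). In the m5C RIP, Actg2 for Het over WT ranged from -0.29 to 2.49, and for Hom over WT Acta2 from -1.39 to 0.21, Actg2 from -2.56 to 0.21 and Cnn1 from -3.39 to 0.20. The upper ends for Hom were against the WT library whose counts include those of Hom, so they reflect the scaling. Members called were 6 to 7 between tissues and 5 to 8 between antibodies. Over the same alternatives, all genes called ran from 5993 to 9403 and from 3215 to 6787. For WT Dnmt1 RIP over input, 1 member was called with no filter, against 0, and all genes called ran from 0 to 1249 over the alternatives. For WT m5C RIP over input the count of members was 1, and 0 with total counts alone, where 0 of all genes were called. Actc1, the member called, no longer passed without either WT fibroblast m5C library. Without the 3 libraries high in Fam221b, the antibody interaction of Myl9 in Het was 8.04 (log2). The only WT Dnmt1 RIP library left there, library 1, had 0 counts of Myl9, so this value rests on a count of 0. Actg2 and Des, just short of the threshold between antibodies, passed under several settings, among them no filter (edgeR adjusted p = 0.000364 and 0.0304).

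Summed levels of the set moved with the total used. With all genes in the total and with TMM they were 588 and 466 CPM in Het Dnmt1 RIP (a mean of 694 as reported), 488 and 405 CPM in Hom Dnmt1 RIP (621), 444 and 347 CPM in WT Dnmt1 RIP (564), 2864 and 3092 CPM in Het m5C RIP (2984), 725 and 1200.2 CPM in the fibroblast input (1745) and 243 and 308 CPM in the cortex input (261); Hom m5C RIP was 1276.5 CPM with TMM (1460). With total counts alone the median of all genes moved to 0.57 between antibodies, and to -0.38 for Hom over WT and -0.36 for Hom over Het in the Dnmt1 RIP.

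Genes called over all genes changed by over 1.5 times in these cases. In the Dnmt1 RIP, where none was called, 192 were for Het over WT with no filter, 26 with DESeq2 and 38 without Het library 2; 13 for Hom over WT with no filter and 2 with total counts; and 113 for Hom over Het with no filter, 15 with DESeq2 and 35 without Het library 2. Subtracting the Hom counts from WT m5C library 1 gave 5993 between tissues (9075 otherwise) and 3215 between antibodies (6446). In the m5C RIP, Het over WT gave 0 to 5 (4) and Hom over WT 0 to 2 (1), and the tissue interaction in Het gave 0 with the subtraction (3). The antibody interaction gave up to 12 for Het and 1 for Hom with no filter (0). Dnmt1 RIP over input gave 0 to 1249 (0), and m5C RIP over input 0 to 5621 (2), the highest without the cortex input. The cause was not tested.

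Replicate numbers did not pair the Dnmt1 RIP libraries: deviations of same-numbered libraries correlated at -0.012 for Het and WT, 0.283 for Hom and WT and 0.051 for Hom and Het. With the replicate number as a block, 0 members were called in the 3 genotype comparisons, 7 between antibodies (Actg2 added, -2.26, edgeR adjusted p = 0.00654; median of the set -1.88) and 0 against the input, where 663 genes were. The Fam221b block, the fits without the 3 libraries, a prior count of 5 in cortex (2 and 1 members past 2-fold, as before) and the tissue interactions were chosen after seeing the data. Low counts limit Tagln, Des and Cnn1 in most libraries and most genes in the fibroblast input. For Tagln, depth and reads shared with overlapping genes cannot be told apart.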
